A study of Mus musculus with 6 samples.

Results

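The nuclear genes of the mitochondrial respiratory chain were examined in mouse embryonic stem (ES) cells that express the transcription factor SIM2 and in their parental line. Members were defined by a rule on name and position, which was chosen with earlier results of these data known. It takes symbols that begin with Nduf, Uqcr, Atp5 or Sdha to Sdhd, or with Cox and a number from 4 to 8, outside chromosomes 12, 15 and 16. This rule took 83 of the 22602 listed genes. 78 of them had a mean of at least 1 RPKM over the 6 libraries and were tested. RPKM is a read count scaled to cDNA length and library depth, so that levels can be compared between genes in broad terms. It does not correct for how well the reads of each gene could be mapped. 9 further genes carry such a name but lie on the 3 chromosomes left out.

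The respiratory chain sits in the inner mitochondrial membrane. Complex I takes electrons from NADH and complex II takes them from succinate, and both pass them through coenzyme Q to complex III, cytochrome c and complex IV, where oxygen is reduced. Complexes I, III and IV pump protons across the membrane, and complex V, the ATP synthase, uses the proton gradient to make ATP. Most subunits are encoded in the nucleus and joined with a small set that the mitochondrial genome encodes, and assembly factors help to build the complexes without staying in them. Pluripotent stem cells rely heavily on glycolysis although they express the chain.

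Clones A6, B8 and C4 carry a Flag-tagged mouse Sim2 transgene at the ROSA26 locus. Its modified human CMV promoter is driven by a transactivator that becomes active once tetracycline is taken away, and a Venus reporter follows the transgene. The EB3 (EBRTcH3) line is their parent, with the Venus reporter and without the Sim2 transgene, and it gave 3 cultures named EB3-0, EB3-1 and EB3-2. All 6 cultures spent 26 h in medium free of tetracycline, so that the comparison is of induced Sim2 clones with their parental line. Each Sim2 library was 1 culture of 1 clone and the EB3 libraries were cultures of 1 line, so that p-values measure the spread between these samples only. No uninduced cells are part of the comparison. Effects of the transgene and other differences between the clones and their parent cannot be told apart.

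Libraries held 25095861 to 28269340 reads assigned to listed genes. Sim2, on chromosome 16, was at 168.4 to 212.4 RPKM in the clones and at 0.0917 to 0.130 RPKM in EB3, as the labels state. All 8 ES cell markers looked at, Pou5f1 and Nanog among them, were expressed in every library (their summed level was 5562 to 7037 RPKM), and 0 of them passed the test. The mesoderm, endoderm, trophoblast and fibroblast lists each summed to at most 13.8 RPKM in any library, the highest of them nearly all Thy1 of the fibroblast list, and the 4 neural markers to 85.1 to 106 RPKM in the clones and 125 to 142.9 RPKM in EB3. Most of the neural sum was Tubb3 (70.4 to 95 RPKM against 113.1 to 133.2), while Nes was at 8.30 to 9.15 RPKM in the clones and 5.75 to 6.03 in EB3, and 0 of the 4 passed the test. The part of any such cells in the results was not tested. In bulk RNA fewer cells of a type and less RNA per cell cannot be told apart.

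The respiratory chain genes were among the most abundant transcripts of these cells. Their median level was 73.4 RPKM (81.3 RPKM for the 78 tested ones), against 12.8 RPKM for all tested genes. 33 of 83 reached 100 RPKM, as did 817 of the 22602 listed genes, and 38 were among the 1000 most abundant. The chain took 1.17% to 1.24% of the reads assigned to listed genes in the clones, 1.12% in EB3-1, 1.13% in EB3-2 and 1.45% in EB3-0. The last library thus held more of these transcripts than any other, and this runs through all that follows.

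Complex V held the highest level. Atp5b, the catalytic beta subunit on chromosome 10, ranked 11 of all genes, at 1618 RPKM in A6, 1493 in B8, 1561 in C4, 1871 in EB3-0, 1496 in EB3-1 and 1505 in EB3-2. A6 and C4 lay among the EB3 cultures, B8 was just below EB3-1, and EB3-0 was highest. Atp5a1, the alpha subunit with which it forms the catalytic head, averaged 706.4 RPKM over the 6 libraries. The complex V median was 143.9 RPKM, and the lowest member was Atp5l (subunit g) at 6.51 RPKM.

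Complex IV had a median of 199.6 RPKM over its 10 general subunits, led by Cox4i1 at 643.2 RPKM. Complex III had a median of 151.3 RPKM over 8 subunits, from 71.6 RPKM for Uqcrb to 393.9 RPKM for Uqcrq. The 4 subunits of complex II ran from 69.2 RPKM for Sdhb, the iron-sulfur subunit, to 171.6 RPKM for Sdhd, a membrane anchor. The 7 core subunits of complex I, which carry the electron path in its arm outside the membrane, had a median of 53.2 RPKM, and its 26 accessory subunits one of 65.8 RPKM. The 4 complex I assembly factors with Ndufaf names had the lowest median of a group other than the tissue isoforms, 16.7 RPKM.

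**Figure D1:**
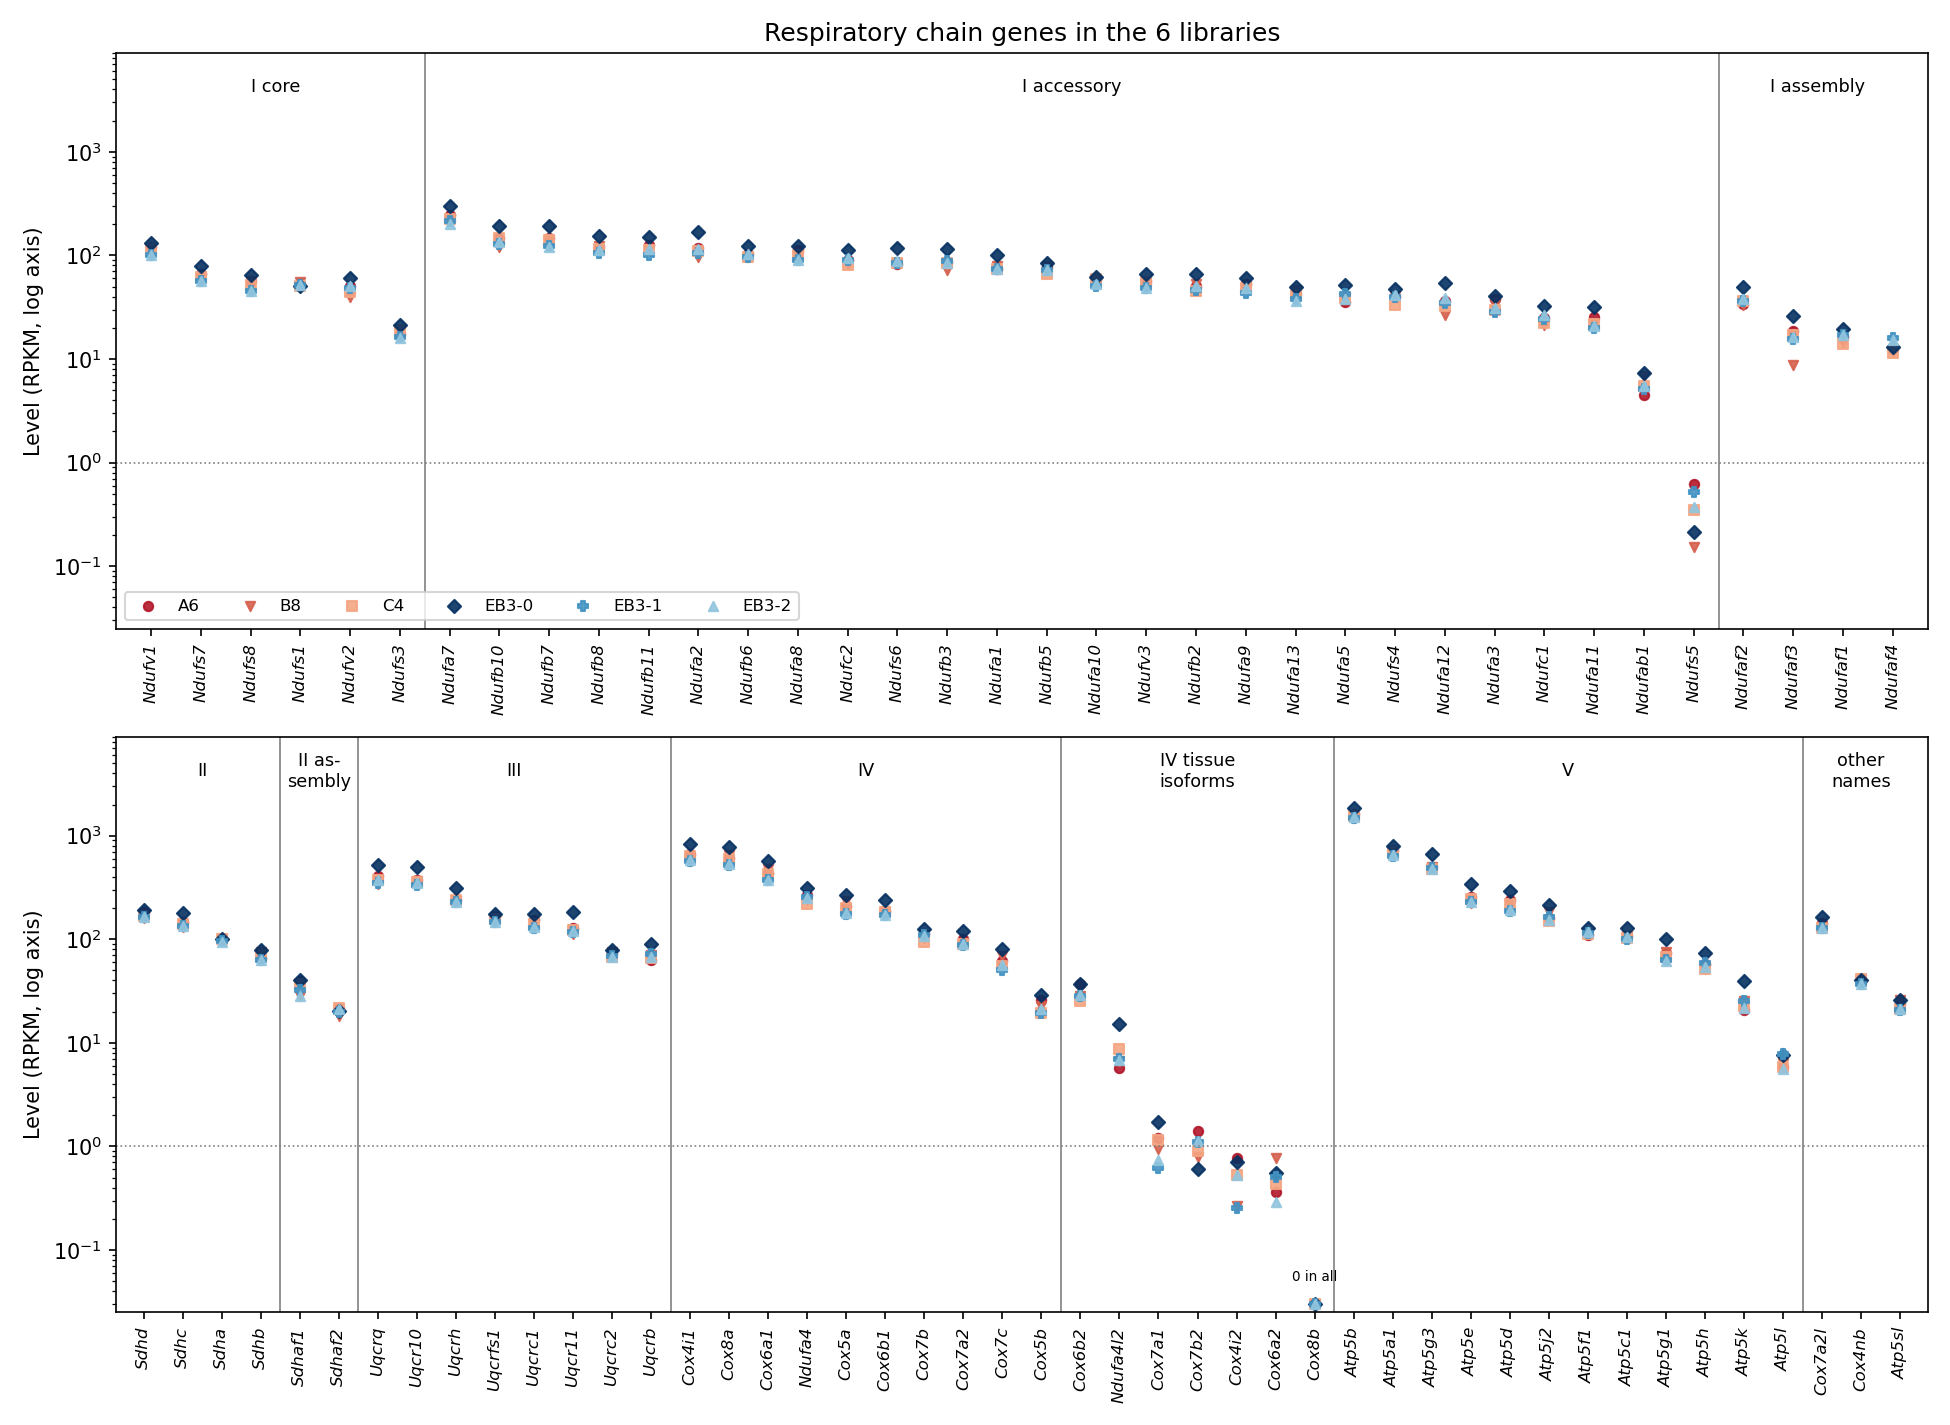
Level of 82 of the 83 respiratory chain genes in RPKM (vertical log axis) in the 6 libraries (symbols: A6, B8 and C4 are Sim2 clones), grouped by complex and ordered by mean level. The dotted line marks the test's minimum of 1 RPKM, Cox8b is drawn at the lower edge because it is 0 in all libraries, and the dark diamonds of EB3-0 sit above the other 5 libraries for most genes.

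Several complex IV subunits exist as a general isoform and one used in heart, skeletal muscle, lung or testis. In these ES cells the tissue isoforms were low beside the general ones, with Cox6b2 as the exception. Cox4i2, the lung isoform, made up 0.0451% to 0.115% of the summed Cox4i RPKM. Cox6a2 and Cox7a1, the muscle isoforms, made up 0.0770% to 0.161% of Cox6a and 0.284% to 0.594% of Cox7a, where Cox7a2l was counted with the family and held 57.8% to 59.0%, against 40.7% to 41.6% for Cox7a2. Cox7b2, a testis isoform, made up 0.482% to 1.23% of Cox7b. Reads were not split over exon junctions in mapping. Of the 100-base stretches of Cox7a1 6.79% lie in 1 exon, against 58.2% for Cox7a2 and 74.5% for Cox7a2l. In Cox4i, Cox6a and Cox7b the tissue isoform had the higher such share. The effect on the isoform shares was not tested.

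Cox8b, the muscle isoform of the Cox8 family, had 0 reads in every library, which allows a level of up to 0.292 to 0.329 RPKM (3 reads per library, counting error only). Cox8a, the general isoform, was at 603.3 RPKM in A6, 656.1 in B8, 600.9 in C4, 774.1 in EB3-0, 519.0 in EB3-1 and 529.4 in EB3-2. The clones thus lay between EB3-0 and the other EB3 cultures.

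Cox6b2, which is known from testis, was at 37.2 RPKM in A6, 28.4 in B8, 25.5 in C4, 37.0 in EB3-0, 28.6 in EB3-1 and 28.9 in EB3-2. It gave 14.0% ± 2.25 of the summed Cox6b RPKM in the clones and 14.1% ± 0.713 in EB3 (SD, n = 3 each), and the groups overlapped. Ndufa4l2, the relative of Ndufa4 that is known to respond to low oxygen, gave 2.10% to 4.67% of the pair, highest in EB3-0. For the c subunit of complex V, Atp5g1 gave 11.3% to 13.1% and Atp5g3 the rest. Another gene for the same protein, Atp5g2, lies on chromosome 15 and was at 4.15 to 6.71 RPKM. Copies elsewhere in the genome at 98% identity or more cover 100% of its transcript and 77.7% of that of Atp5g1. Both levels are uncertain to that extent.

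The promoter sequences of 2 such pairs are shown because they separate an abundant from a nearly silent isoform. Each run is the 250 bases before the RefSeq start, 5′ to 3′ on the gene's strand, in build GRCm38.p6, with CG dinucleotides in capitals. Cox8a lies at chr19:7217617-7217866 (minus strand), Cox8b at chr7:140900447-140900696 (minus strand), Cox7a2 at chr9:79759854-79760103 (minus strand) and Cox7a1 at chr7:30183921-30184170 (plus strand).
Cox8a: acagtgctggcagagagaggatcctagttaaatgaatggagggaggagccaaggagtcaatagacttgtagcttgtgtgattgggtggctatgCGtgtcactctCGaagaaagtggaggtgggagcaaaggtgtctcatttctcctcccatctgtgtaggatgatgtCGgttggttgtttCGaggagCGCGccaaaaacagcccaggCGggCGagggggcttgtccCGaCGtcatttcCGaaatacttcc
Cox8b: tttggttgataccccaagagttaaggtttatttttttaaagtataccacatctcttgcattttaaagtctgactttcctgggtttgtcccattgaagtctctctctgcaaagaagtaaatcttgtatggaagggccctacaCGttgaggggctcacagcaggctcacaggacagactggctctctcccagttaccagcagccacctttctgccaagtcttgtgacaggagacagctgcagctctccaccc
Cox7a2: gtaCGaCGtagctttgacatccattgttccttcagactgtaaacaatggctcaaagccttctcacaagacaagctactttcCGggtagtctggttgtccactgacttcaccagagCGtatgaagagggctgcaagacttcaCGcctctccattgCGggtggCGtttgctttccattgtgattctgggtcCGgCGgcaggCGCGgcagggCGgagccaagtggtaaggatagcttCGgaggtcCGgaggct
Cox7a1: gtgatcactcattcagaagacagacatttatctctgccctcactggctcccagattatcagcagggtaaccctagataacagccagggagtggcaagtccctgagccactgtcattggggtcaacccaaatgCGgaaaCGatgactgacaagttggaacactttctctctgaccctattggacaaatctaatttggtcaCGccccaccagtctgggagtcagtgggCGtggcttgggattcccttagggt

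CG dinucleotides are depleted in most of the genome and retained in CpG islands, at which many broadly expressed genes start. The Cox8a window holds 11 of them and the Cox8b window 1, and the Cox7a2 window holds 14 and the Cox7a1 window 4. The same did not hold for Cox7b, with 5 at 108.7 RPKM, against Cox7b2, with 9 at 0.988 RPKM. Atp5g1 and Atp5g3 hold 15 each at 73.4 and 517.6 RPKM. RefSeq windows were matched for 70 members, with a median of 14 CG, against 16 over the 9187 tested genes that were matched and 6 over all 27025 windows. The members were therefore near the tested genes in this respect.

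Letters of transcription factor motifs were searched in the same 250 bases on both strands. NRF1, a regulator known for respiratory chain genes, has the core GCATGCGC, which was found in 7 of 70 members (10%), in 4.95% of tested genes and in 2.32% of all windows. The ETS core CCGGAAGT, bound by GABPA (NRF2), was found in 3 members (4.29%), in 6.49% of tested genes and in 2.93% of all windows. The core ACGTG, bound by dimers of ARNT, the partner of SIM2, was found in 16 members (22.9%), in 22.7% of tested genes and in 16.6% of all windows. These are matches of letters and no more. No match of the YY1 core AAGATGGC was found in the members (2.23% of tested genes). With the first 50 bases of the gene included, 10 members hold it (5.24% of tested genes), 9 the NRF1 core (5.97%), 5 the ETS core (9.11%) and 19 the ARNT core (26.6%).

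Ndufs5, a small accessory subunit of complex I, was the lowest member after Cox8b. It was at 0.626 RPKM in A6, 0.152 in B8, 0.347 in C4, 0.216 in EB3-0, 0.514 in EB3-1 and 0.376 in EB3-2, from 2 to 8 reads. All other accessory subunits of complex I were at 5.80 RPKM or more. Ndufs5 lies on chromosome 4 (mm9, chr4:123389953-123395429, minus strand), and its transcript has 3 exons. A single-exon copy of 504 bases at 99.6% identity lies on chromosome 16 (mm9, chr16:42955673-42956176, plus strand), inside Zbtb20, and is annotated as the pseudogene BC002163. The first 150 coding bases are shown from the annotated Ndufs5 transcript and from the copy, with the bases that differ in capitals, to show how alike the 2 sequences are.
Ndufs5: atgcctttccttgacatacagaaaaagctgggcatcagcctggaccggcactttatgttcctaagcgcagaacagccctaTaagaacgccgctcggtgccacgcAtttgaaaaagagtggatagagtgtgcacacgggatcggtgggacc
BC002163: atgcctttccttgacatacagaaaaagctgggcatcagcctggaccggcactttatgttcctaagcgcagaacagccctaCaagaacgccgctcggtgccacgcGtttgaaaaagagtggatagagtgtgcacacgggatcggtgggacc

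These 2 positions were the only ones that differed over the 321 aligned coding bases. BC002163 has a row of its own in the deposited table. It stood at 132.9 RPKM in A6, 145.6 in B8, 143.3 in C4, 182.0 in EB3-0, 142.9 in EB3-1 and 139.3 in EB3-2, from 1668 to 2484 reads. That level is within the range of the complex I accessory subunits (up to 234.2 RPKM for Ndufa7), with EB3-0 highest as for most members. Which of the 2 loci these reads came from was not tested, so the value listed for Ndufs5, which enters the medians and counts of levels here, is uncertain. BC002163 did not pass the test between the groups (log2 fold change -0.13 ± 0.12 (SE); limma, adjusted p = 0.616).

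Processed copies were common among the subunit genes. Tissue isoforms set aside, 10 of the 67 subunit genes had 1 or more copies elsewhere at 98% identity or more (at least 100 bases) that covered at least 50% of the transcript: Atp5f1, Atp5g1, Atp5h, Atp5l, Cox5b, Cox7c, Ndufs3, Ndufs5, Uqcr11 and Uqcrb. Their median level was 60.3 RPKM, and 3 of them, Ndufs3, Atp5l and Ndufs5, were under 20 RPKM. The 16 subunit genes without a copy had a median of 100.6 RPKM, the lowest being Ndufa9 at 51.0 RPKM. The other 41 had a median of 108.3 RPKM, and 1, Ndufab1 at 5.80 RPKM, was under 20 RPKM.

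Across the 67 genes Spearman's rho between the mean level and the share of the transcript covered was -0.40, a description over genes that share the same 6 libraries. Atp5l had 92.6% of its transcript covered by copies and levels of 5.83, 6.35 and 5.79 RPKM in A6, B8 and C4 and of 7.71, 7.80 and 5.60 RPKM in EB3-0, EB3-1 and EB3-2. Other genes covered to a like extent were at higher levels, with Atp5h (95.2% covered) at 58.3 RPKM, Uqcrb (90.5%) at 71.6 RPKM and Uqcr11 (85.4%) at 131.3 RPKM. Whether copies lower the listed levels was not tested. For these 10 genes a read may fit both the gene and a copy, and their levels are uncertain to that extent.

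**Figure D2:**
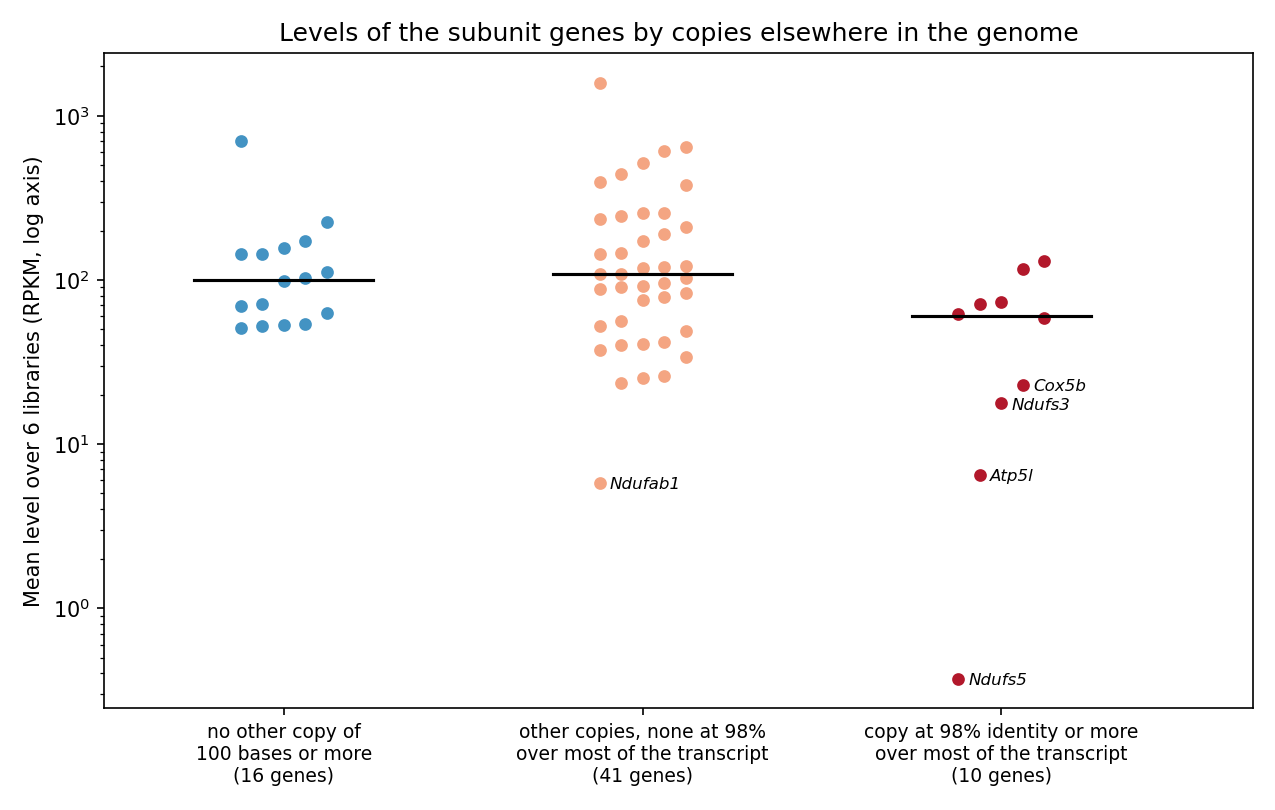
Mean level over the 6 libraries in RPKM (vertical log axis) of the 67 subunit genes, one point per gene, split by whether the transcript has another copy in the mm9 genome and how close it is; black bars are medians. The points of the third class reach lower, with Ndufs5 at 0.372 RPKM and Atp5l at 6.51 RPKM.

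Gene positions also overlap. Atp5f1 (subunit b of complex V) shares 751 bases with Wdr77 on the opposite strand, a gene at 103.9 to 129.3 RPKM, and as the library kit does not mark strand, reads from the shared stretch cannot be told apart. Ndufa13 shares 344 bases with Tssk6, which was at 3.50 to 5.83 RPKM. Cox4i1 and Cox4nb start head to head on chromosome 8 with 177 bases between them. Cox4nb, also known as Emc8, belongs to a membrane complex of the endoplasmic reticulum and shares only its name with the chain. Cox7a2l has a role in supercomplexes and Atp5sl in complex I assembly. Other members lie close without touching, such as Ndufs8 and Ndufv1 on chromosome 19, 94.8 kb apart.

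Between the Sim2 clones and EB3, 0 of the 78 tested members passed the test (limma, adjusted p under 0.05), where 81 of 11595 tested genes (0.699%) did. 1 member had an unadjusted p under 0.05, against 17.8% of all tested genes, and limma-voom on the recovered reads gave the same 2 counts. In 0 members were all 3 clones above all 3 EB3 cultures, against 12.7% of tested genes, and in 4 (Atp5f1, Ndufaf1, Ndufaf2 and Ndufaf4) all 3 were below, against 13.4%. The median log2 fold change of the members was -0.06, with 22 above 0 and 56 below, and that of all tested genes was -0.01. The members ranged from -0.40 (Ndufaf3) to 0.15 (Cox7a1).

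The intervals show what the 6 libraries could resolve. The 95% confidence interval of the log2 fold change lay within 1 of 0 for 76 of the 78 members and within 0.5 for 62. The exceptions to the first were Ndufaf3 (-1.08 to 0.27) and Ndufa4l2 (-1.03 to 0.32). The median SE was 0.135. For Atp5b the log2 fold change was -0.05 (interval -0.37 to 0.26; limma, adjusted p = 0.873).

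EB3-0 was the highest of the 6 libraries for 70 of the 78 tested members (89.7%), against 27.1% of all tested genes. Its log2 ratio to the mean of EB3-1 and EB3-2 had a median of 0.42 over the members. The clones had medians of 0.13 (A6), 0.04 (B8) and 0.05 (C4) on the same scale. EB3-1 and EB3-2, to which the ratios are taken, differed from each other by a median of 0.04 (absolute log2). A6 was above their mean for 62 of the 78 members, B8 for 47 and C4 for 46. EB3-0 lay furthest from them, above their mean for 75.

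The excess in EB3-0 went with transcript length. Members are short, with a median cDNA of 756 bases against 2732 for all tested genes, and 49 of 78 (62.8%) are under 1000 bases against 8.45% of tested genes. Over all 980 tested genes under 1000 bases the median ratio of EB3-0 was 0.35, against 0.46 for the 49 short members. EB3-0 was highest for 95.9% of the short members and for 63.2% of the short genes. The short members had a median of 549 bases, against 748 for the short genes. The 29 longer members had a median of 0.29, against -0.03 over all 10615 tested genes of 1000 bases or more. EB3-0 was highest for 79.3% of these members and for 23.8% of these genes. Within this class the members were still shorter, with a median of 1572 bases against 2910. Spearman's rho between the ratio and length was -0.56 over the 78 members and -0.61 over all tested genes, as a description over genes from the same libraries. For A6, B8 and C4 it was 0.03, -0.02 and 0.13 over the members and -0.19, 0.08 and -0.07 over all tested genes. The cause of the pattern was not tested.

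**Figure D3:**
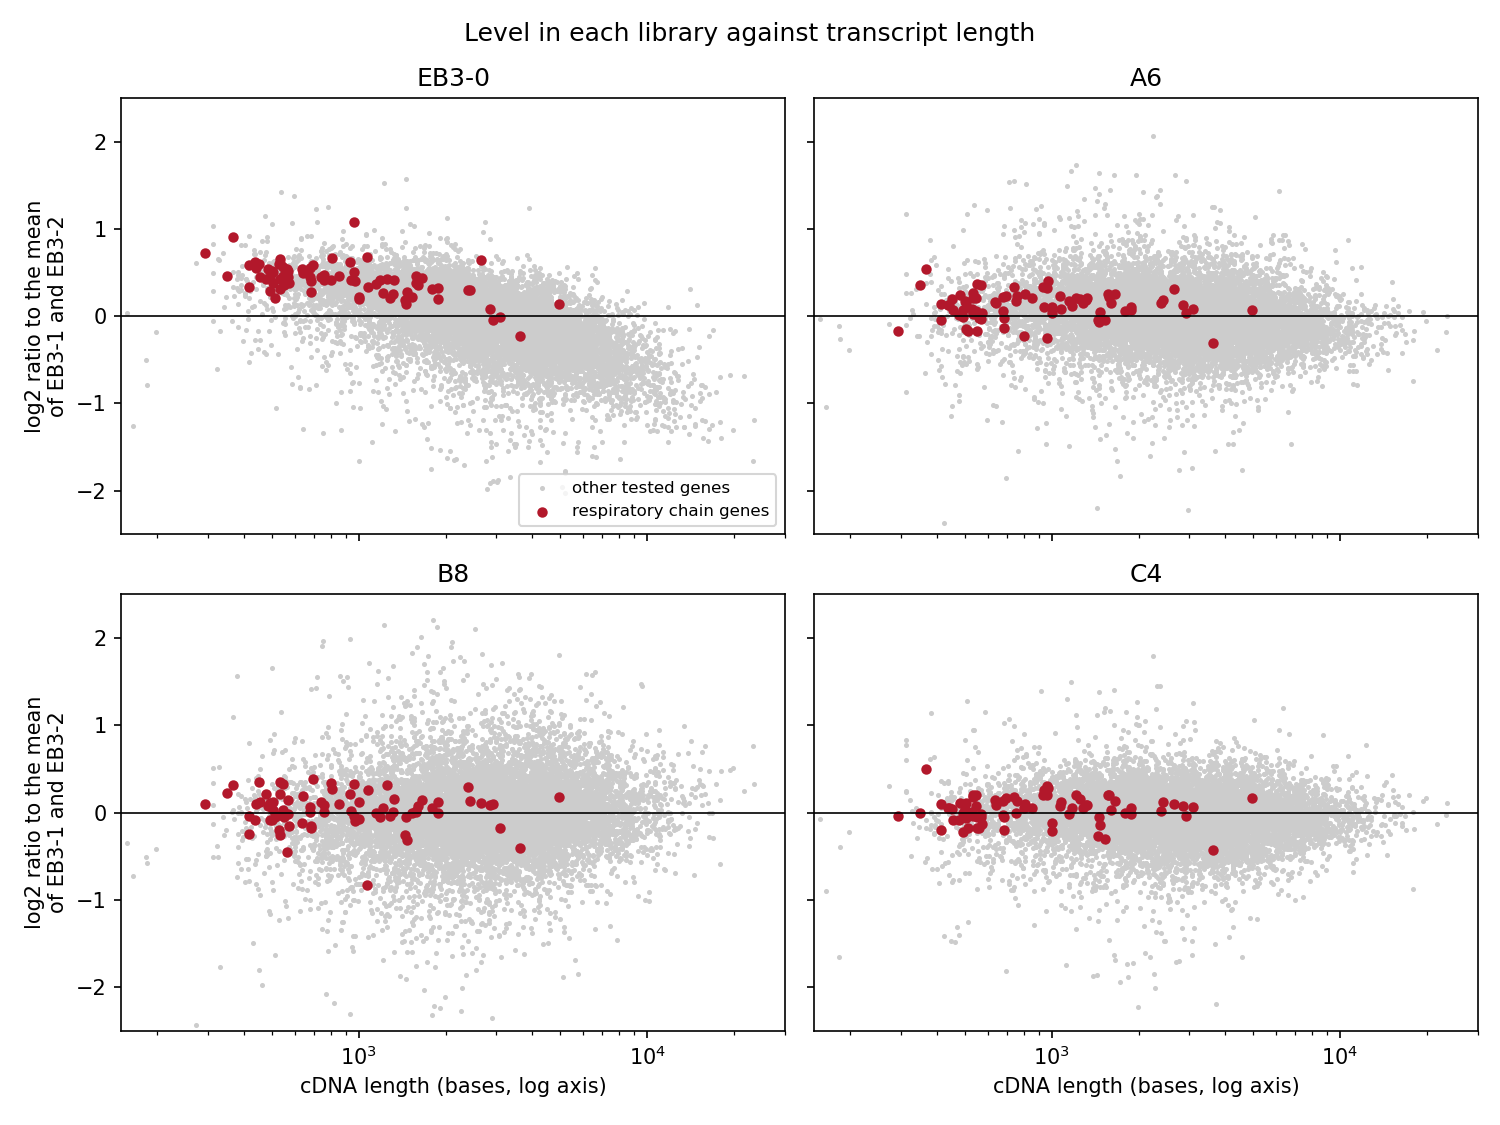
log2 ratio of EB3-0, A6, B8 and C4 to the mean of EB3-1 and EB3-2 (vertical axis, log2 of RPKM + 0.5) against cDNA length in bases (log axis), one point per tested gene, with the 78 respiratory chain genes in red; a few other genes lie outside the vertical range. In EB3-0 84.6% of the tested genes under 1000 bases sit above 0, against 46.7% of the longer ones (median -0.03). Of the 29 red points of 1000 bases or more, 26 lie above 0. In the clones the red points show little slope with length and have medians of 0.13 (A6), 0.04 (B8) and 0.05 (C4).

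Without EB3-0 the balance of the members turned round. Their median log2 fold change became 0.06, with 56 above 0 and 22 below, and 14 had an unadjusted p under 0.05 (13 higher and 1 lower), against 26.6% of all tested genes. Still 0 passed the test, where 694 genes (5.99%) did. This fit takes its EB3 spread from EB3-1 and EB3-2 alone, which were much alike (median absolute log2 difference 0.065 over all tested genes). The members' median SE fell from 0.135 to 0.075. With EB3-1 and EB3-2 averaged and EB3-0 kept, 6 genes passed. Adjusted p-values without EB3-0 given below carry this limit. With the trend of each library with cDNA length removed and all 6 libraries kept, the median was 0.04, 4 members had an unadjusted p under 0.05 against 21.5% of tested genes, and 0 passed where 250 genes (2.16%) did. Neither direction of the members as a whole is therefore given as a result.

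Complex I held the lowest log2 fold changes. Of the 7 core subunits, Ndufs8 had the highest log2 fold change, 0.11, at 56.3, 56.6 and 51.9 RPKM in A6, B8 and C4 and at 64.4, 45.1 and 44.9 RPKM in EB3-0, EB3-1 and EB3-2. The clones lay above EB3-1 and EB3-2 and below EB3-0. Without EB3-0 the log2 fold change was 0.28 ± 0.07 (SE; limma, adjusted p = 0.0639). Ndufv2 was lowest among the core subunits, at -0.23 ± 0.12 (adjusted p = 0.384).

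Of the 25 tested accessory subunits 6 were above 0 and 19 below, with a median of -0.09 (0.05 without EB3-0). Ndufa12 was at 36.4 RPKM in A6, 26.8 in B8, 32.5 in C4, 53.8 in EB3-0, 35.0 in EB3-1 and 38.8 in EB3-2. The groups overlapped through A6. Its log2 fold change was -0.40 (interval -0.79 to 0.00; limma, adjusted p = 0.286), and -0.22 ± 0.13 without EB3-0. Ndufa13, an accessory subunit also described as a cell death regulator, was highest of this group at 0.08 ± 0.13 (adjusted p = 0.781).

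The 4 complex I assembly factors with Ndufaf names had the lowest median log2 fold change of any group, -0.28. It stayed below 0 without EB3-0 (-0.18) and after removal of the length trend (-0.26), and all 4 were below 0 in each of these 3 fits. None of the 4 passed the test in any of the fits run. Atp5sl, grouped apart by its name though it has a role in complex I assembly, was at 0.06, 0.16 and 0.07 in these 3 fits. Ndufaf4, which works with Ndufaf3 early in assembly, was at 12.5 RPKM in A6, 11.6 in B8, 11.4 in C4, 13.2 in EB3-0, 15.8 in EB3-1 and 15.3 in EB3-2. It has the second longest transcript of the members, at 3632 bases, and EB3-0 was its lowest EB3 culture. Its log2 fold change was -0.30 ± 0.11 (SE; limma, adjusted p = 0.214; exact permutation p = 0.1, the smallest that 3 against 3 allow), -0.38 ± 0.09 without EB3-0 (adjusted p = 0.055), and -0.32 ± 0.09 with the length trend removed (adjusted p = 0.0964). With the trend with transcript GC content removed as well it shrank to -0.09 (adjusted p = 0.633), and those of Ndufaf1, Ndufaf2 and Ndufaf3 were -0.10, -0.06 and -0.42.

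Ndufaf1, a partner of the early membrane arm, was at 16.5 RPKM in A6, 14.2 in B8, 14.0 in C4, 19.4 in EB3-0, 17.0 in EB3-1 and 17.1 in EB3-2. The clones were all below EB3, A6 by little, and the log2 fold change was -0.25 ± 0.11 (limma, adjusted p = 0.289). Ndufaf2, a relative of Ndufa12 that takes part in late assembly, was at 33.7 RPKM in A6, 32.9 in B8, 35.9 in C4, 49.1 in EB3-0, 36.3 in EB3-1 and 38.1 in EB3-2. C4 lay just under EB3-1. Ndufaf3 varied among the clones, with A6 at 18.8 RPKM, B8 at 8.73 and C4 at 16.9, against 25.9 in EB3-0, 15.6 in EB3-1 and 16.3 in EB3-2. B8 alone was low, and A6 and C4 were above 2 of the EB3 cultures.

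Complex II is the only complex whose subunits are all encoded in the nucleus, and the enzyme also serves the tricarboxylic acid (TCA) cycle. Sdha, the flavoprotein subunit, was at 104.0 RPKM in A6, 100.4 in B8, 100.1 in C4, 100.4 in EB3-0, 96.3 in EB3-1 and 93.3 in EB3-2. It is a long transcript (2859 bases) and EB3-0 did not stand apart there. Its log2 fold change was 0.07 (interval -0.11 to 0.25; limma, adjusted p = 0.689). Sdhb, Sdhc and Sdhd were at 0.04, -0.10 and -0.02, with adjusted p of 0.897, 0.735 and 0.947. The assembly factors Sdhaf1 and Sdhaf2 were at 0.06 and -0.01.

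In complex III all 8 subunits were highest in EB3-0. Uqcrc1, a core protein, had the highest log2 fold change, 0.03, and Uqcrb the lowest, -0.19 (limma, adjusted p = 0.469). Uqcrq, the most abundant, was at 407.2 RPKM in A6, 341.2 in B8, 373.9 in C4, 516.3 in EB3-0, 347.3 in EB3-1 and 377.4 in EB3-2. The clones spanned EB3-1 and EB3-2.

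In complex IV all 10 general subunits were highest in EB3-0, with a median log2 ratio to EB3-1 and EB3-2 of 0.53. Their median log2 fold change was -0.03, and 0.14 without EB3-0. Cox5a, a subunit on the matrix side, was highest at 0.07 ± 0.16 (limma, adjusted p = 0.858), and 0.26 ± 0.08 without EB3-0 (adjusted p = 0.0885). Cox8a went from 0.05 to 0.24 ± 0.06 (adjusted p = 0.0659) in the same way. Ndufa4, long classed with complex I and now placed in complex IV, was lowest at -0.18 ± 0.12 (adjusted p = 0.489).

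Among the tissue isoforms, Cox7a1 was at 1.20 RPKM in A6, 0.954 in B8, 1.16 in C4, 1.70 in EB3-0, 0.613 in EB3-1 and 0.733 in EB3-2. Its level was close to the minimum for testing, and its log2 fold change was 0.15 ± 0.27 (limma, adjusted p = 0.815). Ndufa4l2 was at 5.72 RPKM in A6, 6.74 in B8, 8.68 in C4, 15.2 in EB3-0, 6.997 in EB3-1 and 6.85 in EB3-2. Its value of -0.35 ± 0.30 (adjusted p = 0.578) came to 0.00 without EB3-0.

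In complex V 11 of 12 subunits were highest in EB3-0. Atp5k, subunit e, was lowest at -0.28 ± 0.20 (limma, adjusted p = 0.510), with 20.9, 25.3 and 22.9 RPKM in A6, B8 and C4 and 39.2, 25.4 and 21.9 RPKM in EB3-0, EB3-1 and EB3-2. It is the shortest member at 292 bases. Atp5d, the delta subunit of the central stalk, was highest at 0.05 ± 0.17 (adjusted p = 0.917), and 0.25 ± 0.06 without EB3-0 (adjusted p = 0.066).

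**Figure D4:**
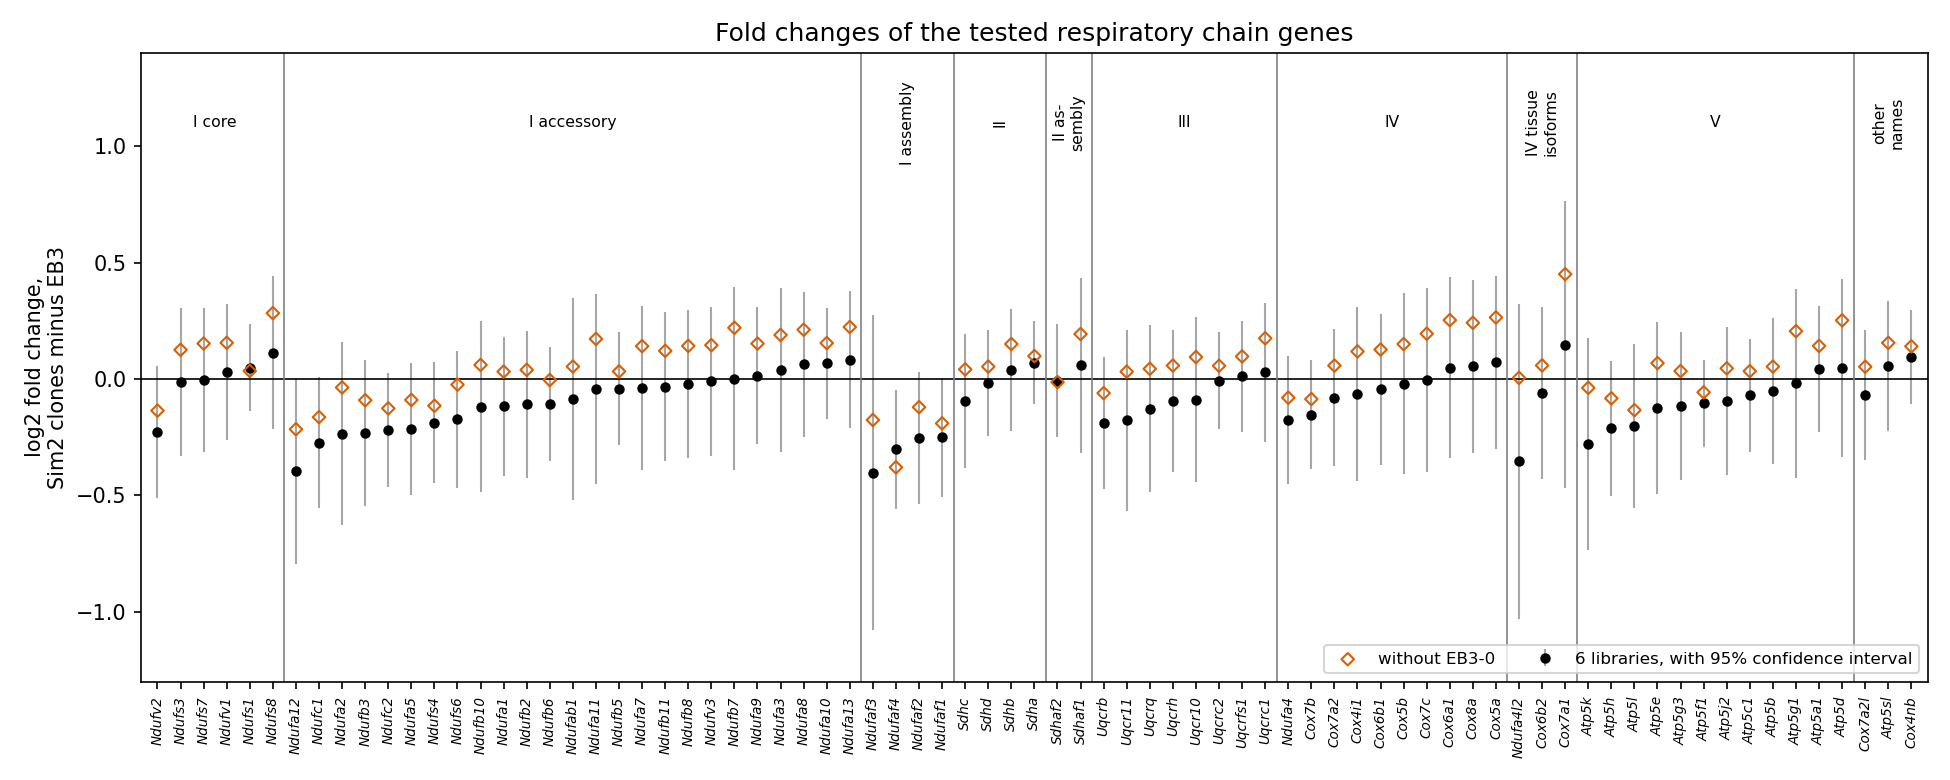
log2 fold change (Sim2 clones minus EB3, log2 of RPKM + 0.5) of 77 of the 78 tested respiratory chain genes by complex, with 95% confidence intervals from limma (grey bars), and the value without EB3-0 (open diamonds). The intervals of all but 1 of the genes drawn (Ndufaf4) include 0, and most diamonds lie above the filled points, those of Ndufaf4, Ndufs1 and Sdhaf2 below.

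Genes of the same pathway outside the name rule were counted by lists. Over all tested genes 0.699% passed the test (limma, adjusted p under 0.05) and 17.8% had an unadjusted p under 0.05. Of the 26 genes of the mitochondrial genome listed, 0 were in the table, so the subunits that it encodes were not analysed here. 0 of 14 electron carrier genes (coenzyme Q synthesis, electron transfer flavoprotein, cytochrome c and c1) and 0 of 25 assembly factors outside the rule passed the test (4 and 3 had an unadjusted p under 0.05), with medians of -0.14 and -0.07. Cycs, cytochrome c, had the lowest adjusted p of the first list (-0.59 ± 0.17, at 0.951 to 2.00 RPKM; limma, adjusted p = 0.136). Copies were searched only for genes with a member's name, so whether copies affect the low level listed for Cycs was not tested. Tmem70, an assembly factor of complex V, had that of the second (-0.42 ± 0.10; adjusted p = 0.102).

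Of 16 tested regulators of mitochondrial biogenesis 0 passed (4 at an unadjusted p under 0.05, against 17.8% of all tested genes). Ppargc1b, a coactivator of such genes, had the lowest adjusted p (0.67 ± 0.14; limma, adjusted p = 0.0833). It was at 2.64, 2.78 and 2.92 RPKM in A6, B8 and C4 and at 1.46, 1.66 and 1.58 RPKM in EB3-0, EB3-1 and EB3-2. The groups did not overlap, at low levels. Of 74 tested mitochondrial ribosomal proteins 0 passed, and 8 had an unadjusted p under 0.05 (17.8% of all tested genes did). Their median log2 fold change was -0.10, and 0.03 without EB3-0, and their median EB3-0 ratio was 0.37. In this they resembled the respiratory chain genes. Their median cDNA was 1052 bases, against 2732 for all tested genes, and the part of length was not tested.

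Of 17 TCA cycle genes 1 passed (0.699% of all tested genes did), and 5 had an unadjusted p under 0.05 (17.8% of all). Sucla2, a subunit of succinate-CoA ligase on chromosome 14, rose from 46.9, 44.5 and 42.3 RPKM in EB3-0, EB3-1 and EB3-2 to 65.0, 64.9 and 60.4 RPKM in A6, B8 and C4, by 0.51 ± 0.08 on the log2 scale (limma, adjusted p = 0.0452). The call was lost in 10 of 17 other fits (adjusted p 0.0139 to 0.254 over all 17), among them the 5 that left out A6, B8, C4, EB3-1 or EB3-2 (0.122 to 0.241). All 12 other tested genes within 2 Mb of it also had log2 fold changes above 0, with a median of 0.51. Whether its rise differs from theirs was not tested. The 8 tested genes with a member's name on chromosomes 12, 15 and 16 gave 0 calls (1 at an unadjusted p under 0.05) and a median of -0.02.

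A list in which the authors assigned their SIM2 binding regions to the closest genes held 6 of the tested members (7.69%), against 10.1% of all tested genes. These were Ndufa10, Ndufa4l2, Ndufaf4, Ndufs1, Ndufs4 and Uqcrb, none of which passed the test. Their log2 fold changes ran from -0.35 (Ndufa4l2) to 0.07 (Ndufa10). Ndufs1, the largest core subunit of complex I, was at 50.2 to 55.7 RPKM in all 6 libraries.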

How the data were processed

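The authors sequenced mRNA libraries (TruSeq) of the 6 cultures, mapped reads with BWA to mm9 and deposited RPKM values per RefSeq gene. BWA does not split reads over exon junctions. Reads recovered from RPKM, cDNA length and depth were whole (within 0.01) for 100% of values. Intervals for counts cover counting error only.

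log2(RPKM + 0.5) of the 11595 genes with a mean of at least 1 RPKM (51.3%) was compared between groups with limma 3.58.1 (R 4.3.3; lmFit, eBayes with an intensity trend), with Benjamini-Hochberg adjustment over all tested genes. A fold change on this scale understates that of low genes. The method was tested on simulated data in which the libraries shared a mean profile, apart from genes changed by known folds. The simulated data held no length trend of EB3-0 and no shift of a single clone. How the fits handle those was therefore not tested. Members and lists were chosen with earlier results of these data known. Named members were those called, those with the extreme level or fold change of each role, isoform families, complex II, and members under the filter. Copies were found with blastn 2.17.0 (megablast) in mm9. Promoters came from RefSeq (GRCm38.p6).

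Alternatives were 2 other pseudocounts, 2 filters, 2 scalings, removal of trends with length and GC content, EB3-1 and EB3-2 averaged, no intensity trend, voom on recovered reads, and each library left out. The study's count test was not run, and voom on the recovered reads is the only count-based fit. The values of 1 member are not reported here on their own.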

Additional observations from a re-analysis of the deposited data

How the results depend on the processing

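0 members passed the test under any of the 17 alternatives, and the lowest adjusted p of a member was 0.055 (limma, Ndufaf4 without EB3-0). The median log2 fold change of the members was -0.06 with the settings of the report and ran from -0.14 to 0.06 with 1 library left out, the one value above 0 being that without EB3-0. It was 0.04 with the length trend removed, 0.04 with length and GC content removed, -0.02 after quantile normalization and -0.13 with EB3-1 and EB3-2 averaged. It moved by less than the spread between libraries (pooled SD 0.175) in all 17. That spread is itself widened by EB3-0, so it cannot show that the median is stable without this library. Of the 42 named members tested, 16 changed sign without EB3-0 and 13 with the length trend removed. The count over all genes, 81, became 28 without a filter on low values, 250 with the length trend removed, 187 with length and GC content removed, 6 with EB3-1 and EB3-2 averaged and 30 without the intensity trend, and it ran from 6 to 694 with 1 library left out. No paired analysis was possible because the groups share no replicate numbers. Levels of genes with near-identical copies are limited by how reads were assigned, whatever the depth.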
